A study of Homo sapiens with 4 samples.

Results

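Integrins are the receptors by which epithelial cells hold to the matrix beneath them. The 9 genes described here are ITGA2, ITGA3, ITGA5, ITGA6, ITGAV, ITGB1, ITGB4, ITGB5 and ITGB6, which encode alpha and beta subunits found on epithelia. They were taken by symbol, with no measured value used in the rule, although earlier results of these data were known. The deposited tables hold 53617 genes, and these 9 hold 102 of the 168036 transcript entries. None of those 102 entries had a failed status. In all, 8 of the 9 genes passed a mean of 1 FPKM in both comparisons, and ITGA5 was listed at 0 in each of its 13 transcripts in every library. FPKM is a density of reads, corrected for the length of each transcript and for how much was sequenced.

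RNA was sequenced from HT29, an established human colon cancer cell line, after lipid transfection of a small RNA at 50 nM (the labels write "50nm"). The 4 libraries were a miR-23b precursor, the control of the precursor, an antimir against miR-23b, and the control of the antimir, with 1 library each. The precursor is a synthetic RNA meant to increase miR-23b, and the antimir is an oligonucleotide meant to block it. The level of miR-23b itself was not analysed here. All 4 cultures were dishes of the same line at 90% confluency in medium with 5% serum, harvested 48 h after transfection. The stated purpose was to find mRNA targets of miR-23b. Values for the 4 libraries are given below in the order precursor, precursor control, antimir, antimir control. With 1 library per group there is no replicate error, no difference below was tested, and the read depth behind each FPKM is unknown.

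Of 10 colon epithelial markers, 7 were at 1 FPKM or more in every library, among them EPCAM, CDH1, KRT20 and VIL1. CDX1 and CDH17 were below 1 FPKM in every library, and GPA33 was below it in the antimir and antimir control libraries. The summed level of the 10 markers ran from 4745 to 10608 FPKM, mostly from KRT8 (2346 to 6798) and KRT18 (1328 to 2443). Of 15 markers of other cell types, CD68 and CD14 passed 1 FPKM in every library and the list summed to between 7.75 and 10.1 FPKM. The endothelial cadherin CDH5 and the fibroblast collagen COL3A1 were listed at 0 throughout, and PECAM1 had no entry under that symbol.

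An integrin is a pair of 1 alpha and 1 beta chain, each with a large outer part, 1 membrane span and, in most chains, a short cytoplasmic tail. The beta tail binds talin and kindlin, which switch the receptor on and tie it to actin. The beta 1 chain pairs with alpha 2 to bind collagen, with alpha 3 or alpha 6 to bind laminin, and with alpha 5 to bind fibronectin. Alpha 6 also pairs with beta 4, whose long tail anchors hemidesmosomes to keratin filaments through plectin. Alpha V pairs with beta 5 to bind vitronectin and with beta 6, an epithelial chain that lets cells activate latent TGF-beta. A microRNA pairs through its seed, bases 2 to 8, with matching sites in the 3' UTR of an mRNA, and lowers that mRNA or its translation.

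The mature miR-23b-3p sequence (RefSeq, GRCh38.p14, chr9:95085265-95085287, plus strand) is shown with its seed in capitals, beside the seed matches found among the 9 genes, since they show which member carries a site for the microRNA that was altered. The motif searched was the 7-mer AATGTGA, on the sense strand, or the 8-mer AATGTGAA with an added A.
hsa-miR-23b-3p: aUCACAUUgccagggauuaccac
ITGB6 3' UTR site: ctttgattaaattgtAATGTGAAgctttta
ITGA2 coding site: ggagaatactttgttAATGTGActaccaga
The ITGB6 site is an 8-mer that starts at base 1450 of a 3' UTR of 2070 bases in ENST00000283249 (GENCODE 29). It was the only match in the longest 3' UTR of the complete coding transcripts of the 9 genes, which ranged from 263 bases in ITGB4 to 4180 in ITGA2. Across 19097 genes with a 3' UTR in that annotation, 18.3% held the 7-mer and 8.69% the 8-mer. ITGA2 held its single 7-mer in the coding sequence, starting at base 3220 of 3543 in ENST00000296585. All 5 ITGA2 entries marked for nonsense-mediated decay, whose reading frame ends early, hold a 7-mer in their annotated 3' UTR. A match is a description of the letters and does not show that the microRNA binds there.

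ITGB1 was by far the most abundant of these integrins. In GENCODE 29, 23 of the 102 entries are protein-coding with a complete coding sequence. Levels are given over these, since sums over all entries mix them with incomplete and noncoding forms. ITGB1, the common partner of most alpha chains, stood at 113, 102, 83.1 and 82.7 FPKM over complete coding transcripts. It was above at least 96.0% of the genes with any FPKM in such transcripts in every library. It made up 66.4%, 67.5%, 61.2% and 59.7% of the summed beta chains. The alpha members summed to 76.4, 65.3, 76.2 and 80.3 FPKM and the beta members to 170, 151, 136 and 139.

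ITGA6 was the most abundant alpha chain in all 4 libraries, at 30.7, 26.0, 31.2 and 33.5 FPKM. ITGB4, its hemidesmosome partner, was next among the members at 29.8, 21.4, 21.6 and 24.2. The ratio of ITGA6 to ITGB4 was 1.03, 1.22, 1.44 and 1.39, so the chains were nearest to equal in the precursor library. In the antimir pair, 16.1 and 17.2 FPKM of ITGA6 lay in ENST00000442250, marked as low data by the authors and so not tested. The other complete coding entries of ITGA6 summed to 15.05 and 16.4 there, below ITGA2 and ITGA3. The rank and ratio of ITGA6 in that pair therefore depend on this entry. ITGB4 also includes a low-data entry, ENST00000449880. ITGA2 (15.5 to 17.8), ITGA3 (14.2 to 18.8) and ITGB5 (14.2 to 20.3) changed places between libraries, so they have no fixed order. ITGB6 (11.4 to 13.6) and ITGAV (9.60 to 10.6) were lowest of the measured members in every library. The tables of the 2 pairs were normalised separately, so a level is compared strictly only within its pair.

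**Figure D1:**
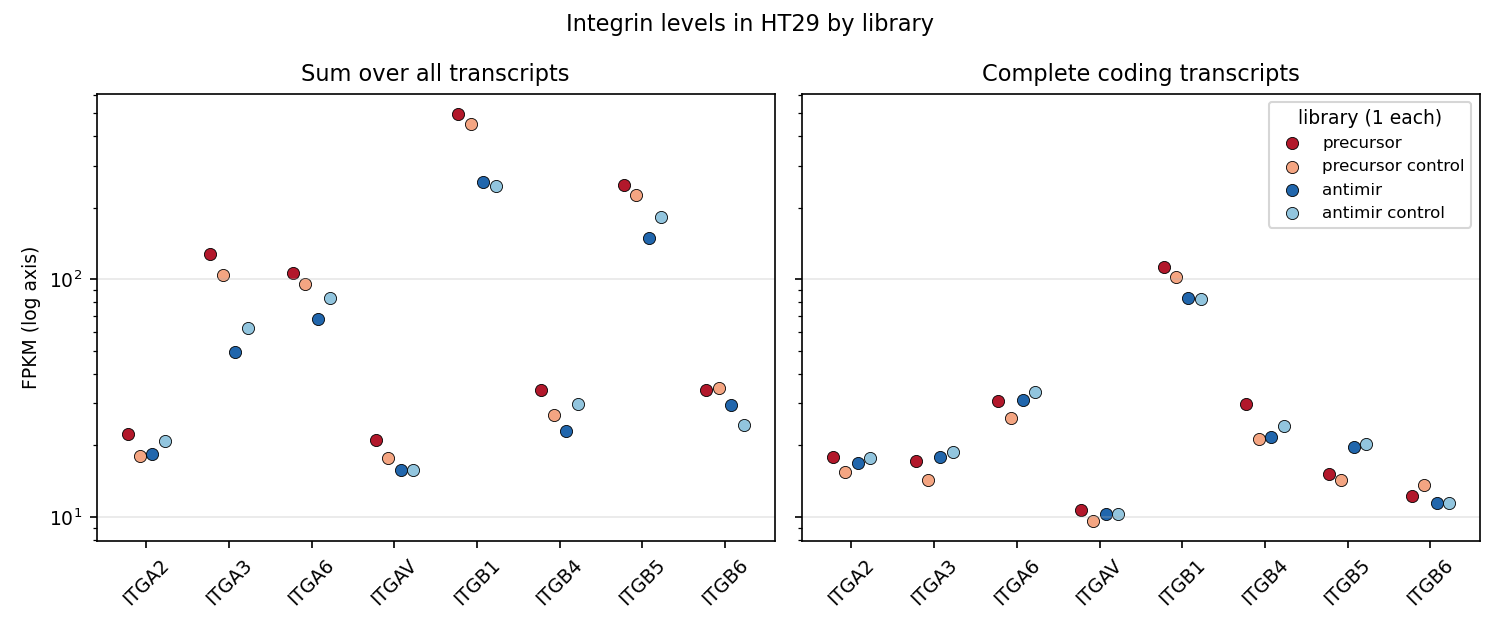
FPKM of the 8 measured integrins in each of the 4 libraries (1 point per library, log axis), as the sum over all transcripts on the left and over complete coding transcripts on the right. ITGB1 is highest in both panels, at 497 and 113 FPKM in the precursor library, and the libraries lie closer together for complete coding transcripts.

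Summed over all transcript entries, the levels were larger and depended on short entries. ITGB5 summed to 249.6, 228, 149.6 and 184 FPKM, of which 88.8%, 88.4%, 76.9% and 82.2% lay in transcripts under 1000 bases. For ITGB1 the sums were 497, 449, 257 and 247 FPKM. ITGA2 and ITGB4 had no such short transcript. In the whole libraries, transcripts under 1000 bases held 53.1%, 50.5%, 53.0% and 54.9% of the transcript FPKM. Both quantities are therefore given for each comparison.

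With the miR-23b precursor most integrins were slightly higher, and ITGB6 was the exception. Of the 8 measured members, 7 were above their control and ITGB6 was below. The differences ran from -0.06 to 0.32 with a median of 0.18, as log2(FPKM + 1) of treated minus control, centred on the median of all genes. Over all 16982 genes tested the middle 50% lay between -0.12 and 0.12, and by the centring 50% of genes lie above 0. None of the members was 1.5-fold higher or lower, against 3.36% of all genes higher and 3.32% lower. Over complete coding transcripts, 7 of 8 were again above 0 (50% of all genes) with a median of 0.13, and 0 were past 1.5-fold, against 0.87% of all genes higher and 0.931% lower. In bulk RNA, fewer cells holding a transcript and less of it per cell cannot be told apart. Of 60 member transcripts at a mean of 1 FPKM or more, 7 were at least 1.5-fold higher (5.32% of all such transcripts) and 2 lower (6.18%).

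ITGB4, the hemidesmosome chain, had the largest difference. It was at 34.3 FPKM against 26.8, a ratio of 1.28 (0.32, above 92.9% of all genes), and at 29.8 against 21.4 over complete coding transcripts (0.43, above 97.9%). ITGA2, the collagen-binding chain, was at 22.4 against 18.05 (0.27), and at 17.8 against 15.5 over its complete coding transcript (0.16). ITGA3, a laminin-binding chain, was at 128 against 104 (0.27), and at 17.2 against 14.2 over complete coding transcripts (0.22).

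By the sum, the other members lay nearer to the middle of all genes. ITGAV was at 21.1 against 17.8 FPKM (0.21), which narrowed to 10.6 against 9.60 over complete coding transcripts (0.10). ITGA6 was at 106 against 95.2 (0.14), or 30.7 against 26.0 over complete coding transcripts (0.20). ITGB1 gave 0.13 by the sum and 0.11 over complete coding transcripts, and ITGB5 gave 0.11 and 0.05. ITGB6 was at 34.03 against 34.9 (-0.06), and at 12.2 against 13.6 over complete coding transcripts (-0.18, above only 13.1% of genes).

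With the antimir most integrin sums were lower, while the complete coding transcripts lay near their control. By the sum, 5 of the 8 measured members were below their control and 3 above, with differences from -0.33 to 0.31 and a median of -0.19. All 14190 genes tested had their middle 50% between -0.14 and 0.15, with 50% of genes below 0. No member was past 1.5-fold, against 5.07% of all genes higher and 2.9% lower. Over complete coding transcripts the same counts of 5 and 3 held, but the differences shrank to between -0.12 and 0.04 with a median of -0.02, and 0 members were past 1.5-fold, against 1.89% of all genes higher and 1.26% lower. Of 48 member transcripts at a mean of 1 FPKM or more, 6 were at least 1.5-fold higher (10.6% of all such transcripts) and 8 lower (9.99%).

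The sums of most members include many short transcripts. Summed over the members, transcripts under 1000 bases stood at 369.7 FPKM against 411 with the antimir, and complete coding transcripts at 212 against 219. In the precursor pair both classes were higher, at 809 against 720 and at 247 against 217.

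ITGB4 was again at an end of the range, at 23.0 FPKM against 29.9 (-0.33), and at 21.6 against 24.2 over complete coding transcripts (-0.12). The rest of its lower sum lay in ENST00000339591, an entry not found in the reference, at 1.41 against 5.72. Over the entries tested by the authors alone, without beta-4B, the ITGB4 difference was -0.58. ITGA3 was at 49.5 against 62.2 (-0.29) but at 17.9 against 18.8 over complete coding transcripts (-0.03). ITGB5 was at 149.6 against 184 (-0.26) but at 19.6 against 20.3 (-0.01). For ITGA3, ENST00000538917, an entry not found in the reference, was also lower, at 0.956 against 4.18.

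ITGA6 was at 68.1 against 83.1 FPKM (-0.25), and at 31.2 against 33.5 over complete coding transcripts (-0.07). ITGA2 was at 18.4 against 20.9 (-0.14), or -0.04 over its complete coding transcript. ITGAV was level, at 15.8 in both libraries (0.04 after centring). ITGB1 was at 257 against 247 (0.09), and at 83.1 against 82.7 over complete coding transcripts (0.04). ITGB6 was the highest of the members, at 29.6 against 24.4 (0.31, above 88.4% of all genes), but at 11.4 against 11.5 over complete coding transcripts (0.03).

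Set side by side, 5 members (ITGA2, ITGA3, ITGA6, ITGB4 and ITGB5) were above control with the precursor and below it with the antimir by the sum, a pattern shared by 28.7% of the 13757 genes measured in both comparisons. ITGB6 alone among the members had the opposite pattern, shared by 28.4% of those genes. ITGAV and ITGB1 were above 0 in both. The 2 comparisons share no library.

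**Figure D2:**
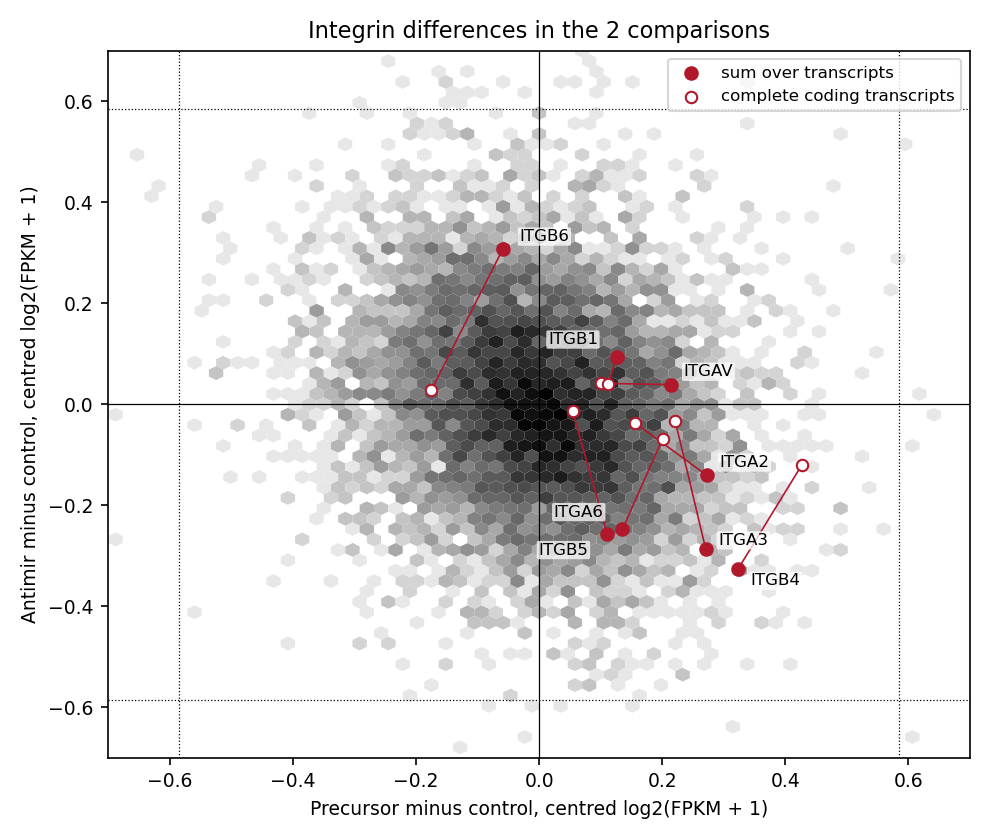
Centred log2(FPKM + 1) difference of each integrin with the precursor (x axis) and with the antimir (y axis), as the sum over transcripts (filled) joined to complete coding transcripts (open), over the density of all genes in grey (those beyond the axis limits are not drawn) with dotted lines at 1.5-fold. No member crosses a dotted line, and ITGB6 alone lies in the upper left by its sum, at -0.06 and 0.31.

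ITGB6 is the only member with a seed match in the 3' UTR of a complete coding transcript, and its transcripts differ in whether their annotated 3' UTR includes it. ENST00000283249, the only complete coding entry with the site, was at 7.17 FPKM against 8.15 with the precursor, and at 9.36 against 7.82 with the antimir. Its centred log2(FPKM + 1) differences were -0.19 and 0.27. The 3 complete coding entries whose annotated 3' UTR ends at 100 bases or earlier, and so lacks the site, summed to 5.05 against 5.43 (-6.87%) and to 2.06 against 3.66 (-43.8%). ENST00000409583, a form marked for nonsense-mediated decay that keeps the site, was at 2.12 against 2.43 and at 1.87 against 2.68.

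With the precursor both entries with the site and the sum of the 3 without it were lower, although 1 of those 3, ENST00000428609, was at 2.51 against 2.23. With the antimir the coding entry with the site was higher, while the decay entry and each of the 3 without the site were lower. The part of the site in these differences was not tested. The authors' deposited table called neither ENST00000283249 nor ENST00000409583 in either comparison. The higher antimir sum of ITGB6, at 29.6 FPKM against 24.4, rested on ENST00000475438, a noncoding entry of 354 bases, at 16.3 against 10.2. The difference in that entry was larger than the difference in the sum, so the remaining ITGB6 entries summed to less than in the control. In the precursor pair ENST00000475438 was at 19.3 against 18.7.

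The shares given next are of gene sums over all transcripts, unlike the single-transcript values above. Genes with and without a site were not matched for 3' UTR length. Of 1074 genes with the 8-mer in their longest 3' UTR and measured in both comparisons, 59.3% were below 0 with the precursor, 51.0% above 0 with the antimir, and 34.8% both. Of 8643 genes without the 7-mer, the shares were 46.7%, 49.5% and 26.9%. The medians were -0.03 and 0.01 for genes with the 8-mer and 0.01 and -0.002 for genes without the 7-mer.

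**Figure D3:**
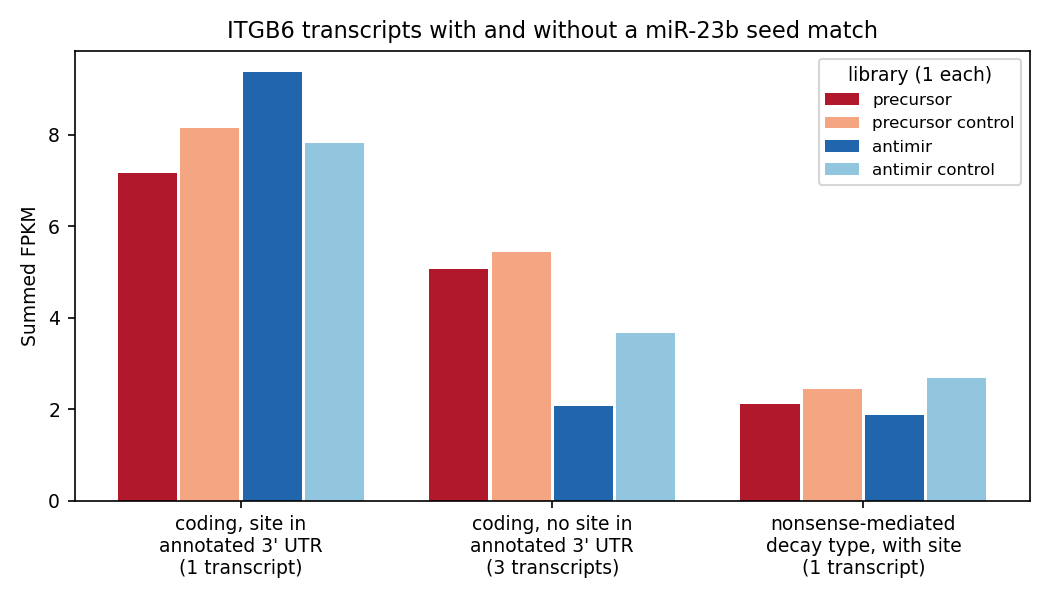
Summed FPKM of ITGB6 transcripts in the 4 libraries (bars, 1 library each), split by type and by whether the annotated 3' UTR holds the 8-mer. The coding transcript with the site is at 7.17 against 8.15 in the precursor pair and at 9.36 against 7.82 in the antimir pair. The pairs were normalised separately, so bars are compared strictly only within a pair.

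Several integrins are made with alternative cytoplasmic tails. Alpha 3 and alpha 6 each have an A and a B tail from alternative 3' exons. Coding bases on either side of the point where the A and B tails part (GENCODE 29) are shown, with the bases of each form's own part in capitals, because these stretches tell the entries compared next apart.
alpha-6A: atggaagtgtggTTTCTTCAAGAGAAATAA
alpha-6B: atggaagtgtggATTCTTTAAACGCTCTAG
alpha-3A: gctgtggaagtgCGGCTTCTTCAAGCGAGC
alpha-3B: gctgtggaagtgTGACTTCTTTAAGCGGAC
The full-length alpha-6A chain has 1073 residues, and the alpha-3A and alpha-3B chains have 1051 and 1066. The share of the A form was read from the complete coding entries that end at each stop codon.

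ITGA6 carried its tails in near equal parts. The A form was at 15.4, 12.1, 15.05 and 16.4 FPKM, and the B form at 15.3, 13.9, 16.1 and 17.2. The A share was 50.1%, 46.5%, 48.3% and 48.8%, so the precursor pair held both the highest and the lowest share. Within the B form, the estimate sat on different entries in the 2 tables: ENST00000458358 was at 14.4 and 11.6 in the precursor pair and listed at 0 in both antimir libraries, where ENST00000442250 was at 16.1 and 17.2, against 0.903 and 2.28 in the precursor pair. ENST00000442250, which held all of the B form in the antimir pair, was marked as low data by the authors in both comparisons, and so not tested. The sum over the B entries varied less than either entry did.

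ITGA3 was mostly the A form. Its share was 82.7%, 82.7%, 88.1% and 87.2%. The A entry was at 14.2, 11.8, 15.7 and 16.4 FPKM and the B entry at 2.98, 2.46, 2.13 and 2.41. Neither pair moved the balance of the tails by more than 1 percentage point.

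ITGB1 was almost wholly the beta-1A form, with shares of at least 99.1% in every library. The beta-1D form, known from heart and skeletal muscle, was at 0.267, 0.902, 0.368 and 0.166 FPKM. ENST00000396033, the less abundant beta-1A entry, was at 1.94 against 0.267 in the precursor pair and at 0.695 against 1.77 in the antimir pair.

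The shares of the ITGB4 tail forms varied most between libraries. Beta-4A, of 1752 residues, held 59.4%, 65.6%, 55.3% and 64.5%, from levels of 17.7, 14.0, 11.9 and 15.6 FPKM. Beta-4B, of 1805 residues, held 26.0%, 28.3%, 29.6% and 15.8%, from levels of 7.73, 6.05, 6.40 and 3.82 FPKM in an entry marked as low data, and so not tested, in both of the authors' tables. Beta-4C, of 1822 residues, held 14.6%, 6.06%, 15.1% and 19.7%, from levels of 4.35, 1.29, 3.25 and 4.77 FPKM. The precursor control stood apart in beta-4C and the antimir control in beta-4B, and the treated libraries lay within 5 percentage points of each other in all 3 forms. The ITGB4 entry not found in the reference, ENST00000339591, was at 4.51, 5.41, 1.41 and 5.72 FPKM.

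**Figure D4:**
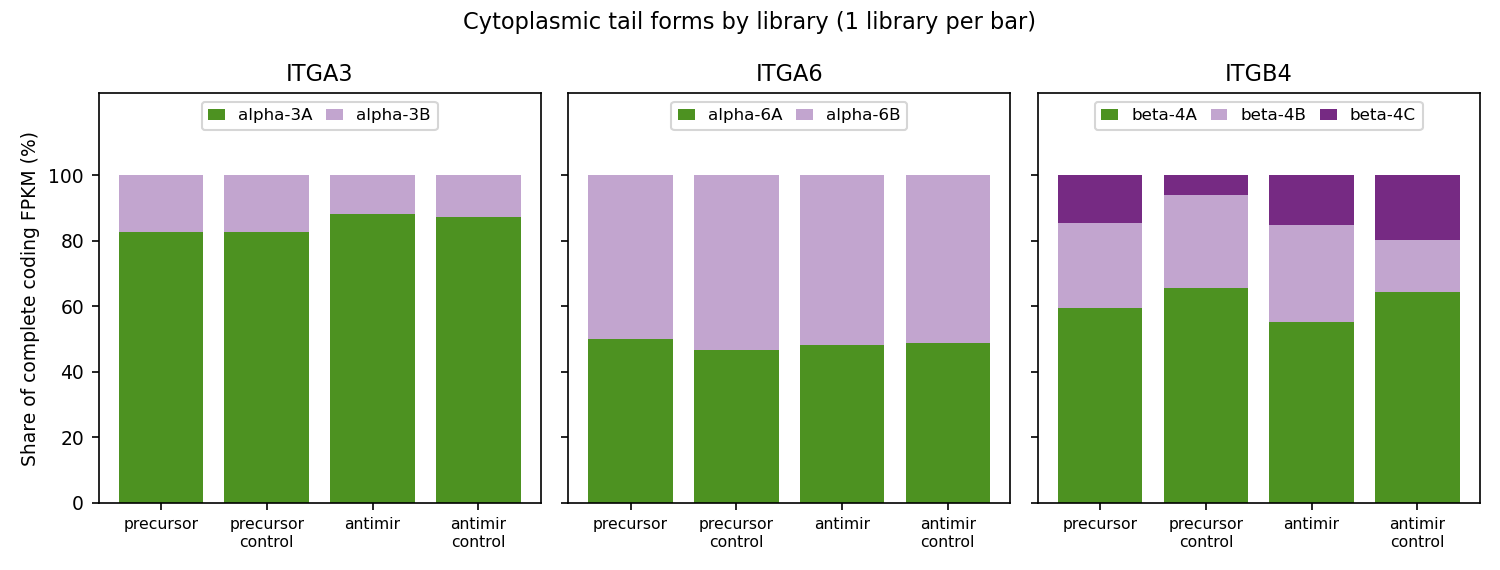
Share of each cytoplasmic tail form in the complete coding FPKM of ITGA3, ITGA6 and ITGB4 (stacked bars, percent, 1 library per bar). ITGA3 is mostly alpha-3A (82.7% to 88.1%), ITGA6 is split near evenly, and the beta-4C share of ITGB4 runs from 6.06% to 19.7%.

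ITGAV was carried by 1 complete coding entry, ENST00000433736, at 10.4, 9.52, 10.2 and 10.1 FPKM. Its annotated 3' UTR has 149 bases, and the entries with a long 3' UTR, ENST00000261023 and ENST00000374907, stayed below 0.2 FPKM in all libraries. ENST00000544640, an entry not found in the reference, was level at 5.50, 5.35, 5.48 and 5.52 FPKM. The retained-intron entry ENST00000496477 was at 4.96 and 2.80 in the precursor pair and listed at 0 in the antimir pair.

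Over all transcripts of a gene, the members' median shift between treated and control was near that of all genes with the precursor and below it with the antimir. A share shift is 50% of the summed absolute changes of transcript shares, in percentage points. With the precursor, the members ranged from 4.67 to 8.59 with a median of 7.61, beside a median of 8.43 over 11724 genes, and 0 members reached 25 points, as 9.59% of genes did. With the antimir, the range was 0.274 (ITGAV) to 19.7 (ITGA3) with a median of 6.87, beside 11.7 over 11100 genes. ITGA3, ITGB4 (15.0) and ITGB6 (13.1) lay above that 11.7, and the other measured members below it. In that comparison 0 members reached 25 points, against 18.4% of genes. Between the 2 control libraries, which sit in separate tables, the members' median was 15.01 and 3 of 8 (ITGA3, ITGA6 and ITGB1) passed 25 points, as did 49.4% of genes. The shift between the control libraries was thus larger than that within either pair for 6 members: ITGA3, ITGA6, ITGAV, ITGB1, ITGB5 and ITGB6.

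In the authors' deposited table for the precursor, 11 of 65 tested member transcripts were called higher (6.91% of all tested transcripts) and 2 lower (6.66%). These calls compare 2 libraries and not 2 conditions. The authors' deposited table put the lowest q at ITGB4 beta-4C (listed as 0), followed by ENST00000396033 of ITGB1 (2.89e-13) and by ENST00000513685 of ITGA2 (9.34e-09), a form marked for nonsense-mediated decay at 4.16 against 1.93 FPKM, whose annotated 3' UTR holds the 7-mer. It also called beta-4A (q = 0.0186), ENST00000264107 of alpha-6A (q = 0.021) and ENST00000458358 of alpha-6B (q = 0.048) higher.

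The other 5 entries called higher in the authors' deposited table were ENST00000488494 of ITGB1, ENST00000514834 and ENST00000506827 of ITGA3, and ENST00000481591 and ENST00000496703 of ITGB5, none of which is a complete coding transcript. The 2 called lower were beta-1D of ITGB1 (q = 2.82e-05) and ENST00000409872 of ITGB6 (q = 0.0219), at 0.0313 against 0.353 FPKM. For the antimir, the authors' deposited table called 0 of 52 tested member transcripts in either direction (0.243% of all tested transcripts were called higher and 0.171% lower). Its lowest q among them was 0.0584.

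The rest of the integrin family was sparse in these cells. Of 17 other integrin genes, 5 passed the filter in each comparison: ITGA1, ITGAE, ITGAM, ITGB7 and ITGB8. ITGA1, a collagen-binding partner of beta 1 whose locus overlaps ITGA2 in the files, was at 24.9 FPKM against 22.9 with the precursor (0.09) and at 21.1 against 23.3 with the antimir (-0.10). Over complete coding transcripts it was at 5.67 against 4.99 (0.12) and at 5.05 against 5.37 (-0.04). The leukocyte chain ITGAM was at 0.894 against 1.16 (-0.21) and at 0.555 against 1.65 (-0.73), the only 1 past 1.5-fold. Its complete coding transcripts were at 0.395 against 0.383 and at 0.349 against 0.388 FPKM, below the filter in both comparisons. ITGB8 was at 3.89 against 4.14 (-0.09) and at 4.94 against 4.98 (0.03), and ITGB3 stayed near 0.

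Among 28 matrix ligand genes, 14 of 18 measured were above 0 with the precursor (median 0.09) and 11 of 16 below 0 with the antimir (median -0.10). COL17A1, a collagen of hemidesmosomes, was at 27.4 FPKM against 19.8 with the precursor (0.43, or 0.17 over complete coding transcripts), TGFB1 at 5.61 against 4.02 (0.37) and LAMC1 at 21.6 against 17.1 (0.29, or 0.08 over complete coding transcripts). SPP1 (-0.12), FN1 (-0.10) and COL4A2 (-0.06) were lowest by the sum. Their complete coding transcripts were near 0, at 0 against 0.0611, 0 against 0.00085 and 0.00043 against 0.00055 FPKM. With the antimir, THBS1 was at 4.68 against 10.4 (-0.97), but at 1.19 against 1.55 over complete coding transcripts (-0.18). LAMB3, a chain of a laminin that alpha 6 beta 4 binds, was at 14.9 against 22.2 (-0.51), or -0.21 over complete coding transcripts. LAMB1 (0.14, but -0.20 over complete coding transcripts), COL4A2 (0.12) and FN1 (0.07) were highest. Complete coding transcripts of COL4A2 and FN1 were again near 0, at 0.00065 against 0.00064 and 0.016 against 0.0441 FPKM.

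Of the cytoplasmic partners, 21 of 32 measured were above 0 with the precursor (median 0.05) and 25 of 32 below 0 with the antimir (median -0.14). FLNA, ACTN1 and ZYX, which link integrins to actin, were highest with the precursor, at 0.34, 0.30 and 0.28, although FLNA was at -0.48 over complete coding transcripts. PTK2B (-0.36), ARHGEF7 (-0.31) and TNS1 (-0.30) were lowest by the sum, but stood at 0.10, 0.61 and 0.10 over complete coding transcripts. With the antimir, FERMT3, the kindlin of blood cells, was at 1.95 FPKM against 4.49 (-0.86). Its complete coding transcripts went the other way, at 0.883 against 0.398, which is below the filter. TLN1, the talin that activates beta tails, was at 36.9 against 48.6 (-0.35), and at 7.73 against 10.9 over complete coding transcripts (-0.42). FLNA was at -0.34, but failed entries held 90.5% of its FPKM in the antimir table and were left out. KANK1 was at 0.30 and ITGB1BP1 at 0.05, but at 0.04 and 0.13 over complete coding transcripts. Over complete coding transcripts, 23 of 29 partners were above 0 with the precursor and 17 of 27 below 0 with the antimir.

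Hemidesmosome and membrane partners were above 0 in 14 of 17 with the precursor (median 0.14) and below 0 in 10 of 16 with the antimir (median -0.07). PLEC, which ties beta 4 to keratin filaments, was at 69.5 FPKM against 47.2 with the precursor (0.53, the largest of this list, and 0.38 over complete coding transcripts), followed by COL17A1, which is in both lists, and the tetraspanin CD81 (0.34). All PLEC transcripts had failed in the antimir table. DST (-0.27), CD47 (-0.19) and TSPAN8 (-0.17) were lowest with the precursor. With the antimir, SDC4 (-0.32), CD44 (-0.28) and SLC3A2 (-0.26) were lowest, at -0.11, -0.21 and 0.15 over complete coding transcripts. CAV1 (0.38, but -0.11 over complete coding transcripts), CD47 (0.28) and TSPAN8 (0.19) were highest. CD47 was at 56.4 against 63.4 and then at 68.4 against 57.8, the same directions as ITGB6, and this held over its complete coding transcripts (-0.18 and 0.25).

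Trafficking genes, which carry integrins between membrane and endosome, were above 0 in 11 of 16 with the precursor (median 0.11) and below 0 in 12 of 16 with the antimir (median -0.02). RAB25, which returns integrins to the surface, was at 164 FPKM against 126 (0.36), but at 70.7 against 69.9 over complete coding transcripts (-0.02). ARRB1 (0.30) and RAB11FIP1 (0.25) came next, and DAB2 (-0.29), GGA3 (-0.03) and VPS35 (-0.02) were lowest. With the antimir, RAB11FIP1 (-0.27), RAB4A (-0.26) and SNX17 (-0.25) were lowest, at -0.34, -0.0051 and -0.15 over complete coding transcripts. RAB21 (0.22, but -0.11 over complete coding transcripts), VPS35 (0.08) and DAB2 (0.02) were highest. Over complete coding transcripts this list split evenly with the precursor, 8 above and 8 below. Across the 5 lists, no gene was past 1.5-fold by the sum with the precursor, and ITGAM, THBS1 and FERMT3 were with the antimir. Over complete coding transcripts other genes passed it: ARHGEF7 (0.61) with the precursor, and CD151 (-0.72), ZYX (-0.71) and SHARPIN (0.68) with the antimir. For CD151 these transcripts were a small part, at 2.27 FPKM against 4.52 of a sum of 204 against 220. ZYX was at 1.89 against 3.84 of 47.0 against 54.6, and SHARPIN at 7.23 against 4.26 of 24.4 against 30.7. ARHGEF7 was at 10.4 against 6.34 of 31.3 against 38.4.

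**Figure D5:**
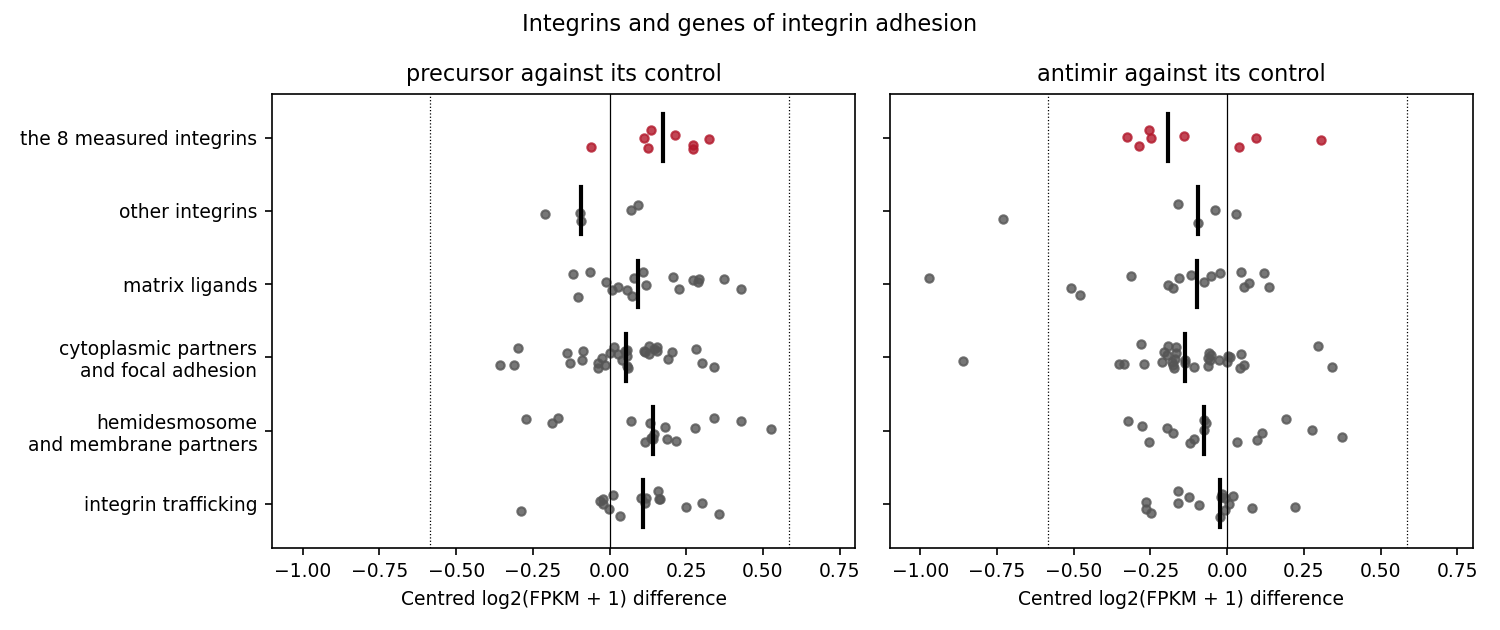
Centred log2(FPKM + 1) differences of the 8 measured integrins (red) and of the measured genes of 5 lists (grey) with the precursor and with the antimir. Each point is 1 gene, bars are medians and dotted lines mark 1.5-fold. The integrin median is 0.18 in the left panel and -0.19 in the right.

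For each member, the gene of these lists with the nearest pair of differences by the sum was found. The search covered 4 libraries and 84 genes measured in both comparisons. FLNA lay nearest to ITGB4 (distance 0.02), with most of its antimir entries failed. ACTN1 lay nearest to ITGA2 (0.03), RAB11FIP1 to ITGA3 (0.03) and SLC3A2 to both ITGA6 (0.02) and ITGB5 (0.0043). CD9 lay nearest to ITGAV (0.03), LAMB1 to ITGB1 (0.05) and KANK1 to ITGB6 (0.03). With 4 libraries such likeness is a description of these values only.

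In hg19, the spans the files give are chromosome 5 from 51971027 to 52390609 for ITGA2, chromosome 17 from 48133332 to 48167848 for ITGA3, and chromosome 12 from 54747445 to 54891472 for ITGA5. On chromosome 2 they are 173292082 to 173489823 for ITGA6, 187454790 to 187630685 for ITGAV and 160956177 to 161128399 for ITGB6. ITGB1 spans 33189247 to 33371030 on chromosome 10, ITGB4 73713474 to 73753898 on chromosome 17, and ITGB5 124480795 to 124606674 on chromosome 3. The spans of ITGA2, ITGA5, ITGA6, ITGAV, ITGB1 and ITGB5 also hold other genes, such as ITGA1 and PELO with ITGA2, PDK1 with ITGA6 and ITGB5-AS1 with ITGB5. The strand handling of the libraries is not given in the sources used here, so reads of an antisense or overlapping neighbour cannot be told apart from those of the integrin.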

How the data were processed

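RNA sequencing of 4 HT29 libraries, 1 per group, was analysed. The submitters' processing notes name bcl2fastq 1.8.3, TopHat2 2.0.11, Cufflinks 2.2.0, Cuffdiff and hg19. Settings and annotation are not given. Per the file headers, the authors deposited FPKM per transcript for each pair of libraries, with a p-value and a q-value. The library whose name ends in N was taken as the control. Failed entries (1321 and 1528) were left out, as were gene-identifier entries of genes with transcripts. Gene FPKM was the sum over transcripts. Differences are log2(FPKM + 1), treated minus control, at a mean FPKM of at least 1, centred on the median of all genes (0.02 and -0.04 removed). The pseudocount understates changes of low genes. Transcript types and UTRs came from GENCODE 29 (GRCh38), matched by identifier with no coordinates taken: 87.9% of all transcripts and 94 of the 102 integrin transcripts matched. Named were all members, their transcripts at a share of at least 10% or called by the authors (those that carry a result are given), up to 3 highest and 3 lowest genes of each list, and the nearest gene to each member. Some genes of the lists are not reported here. Complete coding values and transcripts outside that rule were added after values were seen. Members and lists were chosen with earlier results of these data known. Calculations (Python 3.11.15, pandas 2.3.3) were tested on simulated data. Alternatives covered the pseudocount, filter, centring and choice of entries.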

Additional observations from a re-analysis of the deposited data

How the results depend on the processing

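The median integrin difference with the precursor kept its sign and stayed within 0.1 of its value under all 11 alternatives. With the antimir the median of -0.19 became -0.033 with the most abundant transcript only, -0.023 with complete coding transcripts only and -0.030 with transcripts of at least 1000 bases. With the most abundant transcript only, 1 member (ITGB6, 0.65) was at least 1.5-fold higher with the antimir, where the sum gave 0. No share shift within a pair reached 25 points under the 3 alternatives run for it. ITGB4 with the antimir went from -0.33 to -0.58 with only entries tested by the authors. Single members changed sign in 5 of 176 values: ITGA6 and ITGB6 with the precursor (most abundant transcript only, -0.09 and 0.01), and ITGA3, ITGB5 and ITGB6 with the antimir (at least 1000 bases, 0.00063, 0.10 and -0.06). No paired analysis was possible because each group holds 1 library. FPKM without counts gives no depth, so counting error cannot be set beside any value.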
